A study of Ovis aries with 26 samples.

Results

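A small group of genes had higher relative values in poly(A) RNA of the 2-cell sheep embryo than of the mature oocyte. The group's later course was followed to the expanded blastocyst. A gene was taken when its mean at the 2-cell stage was at least 4 times its mean in oocytes, as (2C mean FPKM + 1)/(MII mean FPKM + 1), with an oocyte mean FPKM of at least 1 and every 2-cell library above both oocyte libraries. FPKM is fragments per kilobase of gene and per 1e+06 fragments. Of the 30186 genes in the table, 47 met the rule. LUM, SRGN and ANXA1, which mark the cumulus cells that surround an oocyte, and UTP11 were left out by name, which leaves 43 genes. Since the genes were chosen by their FPKM in the 2C and MII libraries, the rise itself is given as a description with no test. Stages are compared by test only after 2C, and the spread in those tests is estimated over all 26 libraries, MII and 2C included.

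The 8 stages were mature oocytes in the second meiotic metaphase (MII, 2 libraries) and cultured embryos from in vitro fertilization. Embryos were taken with 2 cells (2C, 4 libraries), 4 cells (4C, 3), 8 cells (8C, 4) and 16 cells (16C, 3), as morulae (Morula, 3), and as early (EarlyB, 3) and expanded blastocysts (ExpB, 4). All came from Ovis aries, with no breed, treatment or genetic change in the labels, and all were lysed directly for Smart-seq2, which amplifies cDNA of poly(A) RNA from very little material. The labels do not say how many oocytes or embryos made up a library nor whether replicates were separate cultures or animals. The p-values therefore speak of the spread among these libraries, part of which may be technical.

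A mature oocyte is transcriptionally silent and lives on stored messages. Many of them are kept with short poly(A) tails, which are lengthened when the message is put to use at maturation or after fertilization, while other messages lose their tails and decay. In sheep the main activation of the embryo's own genome is known to fall around the 8-cell to 16-cell stages, after the step examined here. A higher FPKM in poly(A) RNA can therefore stand for more molecules, for longer tails or for a smaller pool of other messages, and gene-level FPKM cannot tell these apart. In whole embryos, fewer cells of a type and less RNA per cell cannot be told apart either.

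In units of 1e+06, reads assigned to genes, recovered from the steps of the deposited values, numbered 16.0 to 35.6 per library. They were 32.2 to 35.3 in 2C and 27.2 to 33.0 in MII libraries, and lowest in EarlyB with 16.0 to 19.9. The error from counting reads is thus small except for genes near 0. Reads come from amplified cDNA, so depth does not bound the error from the number of RNA molecules captured. Libraries of a stage resembled each other at Pearson r of 0.913 to 0.992 across tested genes, lowest among the 16C libraries; genes are not independent replicates.

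The 43 genes had a median level of 40.9 FPKM at 2C and 7.66 FPKM at MII, taken over the genes' stage means. They were 0.545% of the 8622 genes with an MII mean of at least 1 before the 4 exclusions, and 2777 of those 8622 had every 2C library above both MII libraries. The ratio ran from 4.02 to 8.71 with a median of 4.70. The highest ratios belonged to PTCD2 (8.71), ITM2B (6.53), ZNF134 (6.13), NHP2 (6.07) and TIMP1 (5.96). Then came RARRES2 (5.91), LOC121817944 (5.88), ID2 (5.72), VIM (5.69) and ABCG2 (5.39). Just inside the threshold stood PSMB5 (4.06), COPS5 (4.04) and FAM162A (4.02), and just outside it PIGC (3.94), LOC101110828 (3.93) and B2M (3.86). The threshold therefore cuts through a continuous range. MII 2 was higher than MII 1 in 36 of the 43 genes (83.7%), against 5387 of all 8622 (62.5%), and the list depends on these 2 libraries: with MII 1 alone 112 genes met the rule, and with MII 2 alone 27. Of the 43 genes, 42 were among those 112 and 21 among those 27.

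PTCD2, a pentatricopeptide repeat protein needed for the maturation of cytochrome b mRNA in mouse mitochondria, had 28.1, 42.7, 58.7 and 43.4 FPKM in the 2C libraries, against 3.90 and 4.26 FPKM in the MII libraries. ZNF134, a zinc finger protein, had 32.0, 32.8, 31.2 and 28.8 FPKM at 2C, against 2.61 and 5.90 FPKM at MII. PRDX1, a peroxiredoxin that removes hydrogen peroxide, had 571, 566, 575 and 515 FPKM at 2C, against 107 and 111 FPKM at MII. In all 3 genes every 2C library was far above MII; the 2C libraries lay close together in ZNF134 and PRDX1 and further apart in PTCD2. The spread was wider in ID2, an inhibitor of basic helix-loop-helix factors, with 15.9, 25.5, 3.75 and 4.29 FPKM at 2C, against 2.05 and 0.625 FPKM at MII. Over all 43 genes the highest 2C library was a median of 1.56 times the lowest.

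In a sheep RefSeq gene table, ARS-UI_Ramb_v3.0, 39 of the 43 are protein coding, 3 are lncRNAs (LOC121817944, LOC121816800 and LOC121819938), and LOC101106492 has no entry. No source used here names the build or annotation behind the deposited values, so no positions are printed. Of their 42 entries there, 12 overlap the span of another gene, among them PUS3 with HYLS1, NUBP1 with TVP23A, VPS29 with FAM216A, DYDC1 with DYDC2 and MAT1A, TAFA4 with EOGT, and TIMP1 with SYN1, ARAF and ZNF81. PPP2R3C and PRORP are neighbours. Whether counting used strand is not stated, so reads of such pairs cannot be told apart and values of these genes are uncertain to that extent.

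By known role, 9 of the 43 act in membranes and trafficking and 8 in mitochondria (PTCD2, PRORP, MRPL48, NDUFA8, NDUFS7, ACAA2, PRELID2 and FAM162A). Lists written from general knowledge are counted here by genes with an MII mean of at least 1, which the rule requires. Complex I subunits and assembly factors held 2 of the 43 (NDUFA8 and NDUFS7, of 47 such genes among 52 in the table). Mitochondrial RNA processing and expression held 2 (PTCD2 and PRORP, of 23 among 36). Numbered zinc finger genes held 1 (ZNF134, of 103 among 258). None of the 43 stood among 67 such genes of RNA polymerase I and ribosome biogenesis, 35 of deadenylation and decapping or 21 of cytoplasmic polyadenylation. Nor did any stand among 37 maternal messages known to be translated after maturation or fertilization, or 13 SR proteins. Over all 8622 such genes 0.545% met the rule before exclusions by name. At that share lists this short can hold none, so the absence is not read as a result. The ribosome biogenesis list was also written without NHP2, one of the 43, and without UTP11, which met the rule. Its count of none thus depends on how it was written. The median log2 ratio of 2C over MII was 0.30 in the complex I list and 0.41 in the mitochondrial RNA list, beside 0.15 over all genes with an MII mean of at least 1.

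Members of the group differed in how they followed LUM, the gene of the matrix protein lumican and a cumulus marker that itself met the rule. LUM had 134, 180, 61.1 and 37.4 FPKM at 2C, against 5.37 and 3.41 FPKM at MII. In later libraries it had 289, 122 and 133 FPKM at 4C, 27.8, 82.7, 113 and 5.22 FPKM at 8C, and 7.66, 91.4 and 56.6 FPKM at 16C. Over those 10 later libraries 7 genes followed it at Pearson r of at least 0.6 on log2(FPKM + 1): CD63 (0.94), RARRES2 (0.91), VIM (0.88), ITM2B (0.87), FAM162A (0.85), TIMP1 (0.83) and S100A11 (0.81). In a two-sided permutation test of 100000 resamples, adjusted over the 43 relations, these 7 and no other passed, at 0.0056 for CD63 up to 0.028 for S100A11. Spearman's rho ran from 0.52 in FAM162A (permutation p = 0.13) to 0.90 in RARRES2 (permutation p = 0.00075; adjusted 0.032), and only RARRES2 passed on rank. Without 8C 4 and 16C 1, the libraries farthest from the median of LUM, r of the 7 ran from 0.46 in FAM162A to 0.78 in CD63. Outside the 7, VPS29 (0.87), PRORP (0.86) and LOC121819938 (0.80) then had a higher r than CD63. The split by LUM thus depends in part on these 2 libraries. Relative to stage means, r of the 7 ran from 0.75 in TIMP1 to 0.91 in CD63. Outside the 7 it was at most 0.67, in NHP2. These r relative to stage means were not tested. The permutation test shuffled libraries across stages, so differences between stages enter its p. It also used the libraries and the r that made the split, so it does not test the split anew.

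The other 36 genes had r between -0.51 and 0.58, with a median of -0.01, and 4.72% of 15154 tested genes reached 0.6. The 7 genes were low in 8C 4, for example VIM with 2.87 FPKM there and 24.3, 68.4 and 36.9 FPKM in the other 8C libraries. The summed FPKM of 22 cumulus and granulosa markers ran from 123 to 480 at 2C and from 52.9 to 65.1 at MII. In later stages it ran from 671 to 1594 at 4C, 52.3 to 467 at 8C and 75.7 to 373 at 16C. Morula libraries had sums of 319 to 587, EarlyB libraries 781 to 871, and ExpB libraries 1983 to 3047. LUM was at most 3.76 FPKM in blastocysts, so the sum did not follow it there. High markers in ExpB were ANXA1 (611 to 1619 FPKM), PTGS2 (735 to 1186 FPKM) and GATM (154 to 388 FPKM). Which cells held these messages was not tested. Without LUM, SRGN, ANXA1 and VIM, which met the rule, the sums were 35.5 to 104 at 2C and 37.2 to 49.7 at MII, and then 56.4 to 308 at 4C, 33.5 to 56.4 at 8C and 34.4 to 54.7 at 16C. ExpB libraries reached 1095 to 1417 without these 4 genes. CYP11A1, the first enzyme of steroid synthesis, had 5.83, 7.36, 0.870 and 1.19 FPKM at 2C, against 0.0604 and 0.150 FPKM at MII, and had 7.80, 4.27 and 5.19 FPKM at 4C and 0 in 8C 4 and 16C 1. FST and FSHR were likewise higher at 4C, with 6.36 to 8.86 FPKM and 4.63 to 6.43 FPKM, than at MII, with at most 0.240 and 0.0748 FPKM, and TNFAIP6 had 235 FPKM in 4C 1 and 2.65 and 2.07 FPKM in the other 4C libraries. AMH, AMHR2 and COL1A1 were at 0.138 FPKM or below in every library up to 8C. Some other markers did not rise from MII to 2C. VCAN had 15.9 and 19.3 FPKM at MII, 16.0 to 18.2 FPKM at 2C and 10.3 to 18.6 FPKM at 4C. INHBA had 1.64 and 0.793 FPKM at MII and 0.361 to 0.780 FPKM at 2C. GATM had 6.52 and 5.93 FPKM at MII, 3.71 to 6.03 FPKM at 2C and 12.1 to 13.0 FPKM at 4C. COL1A2 had 2.17 and 2.40 FPKM at MII and 1.73 to 2.62 FPKM at 2C. The part of cumulus RNA in these 7 genes was not tested, and the counts of calls below are also given for the other 36.

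**Figure D1:**
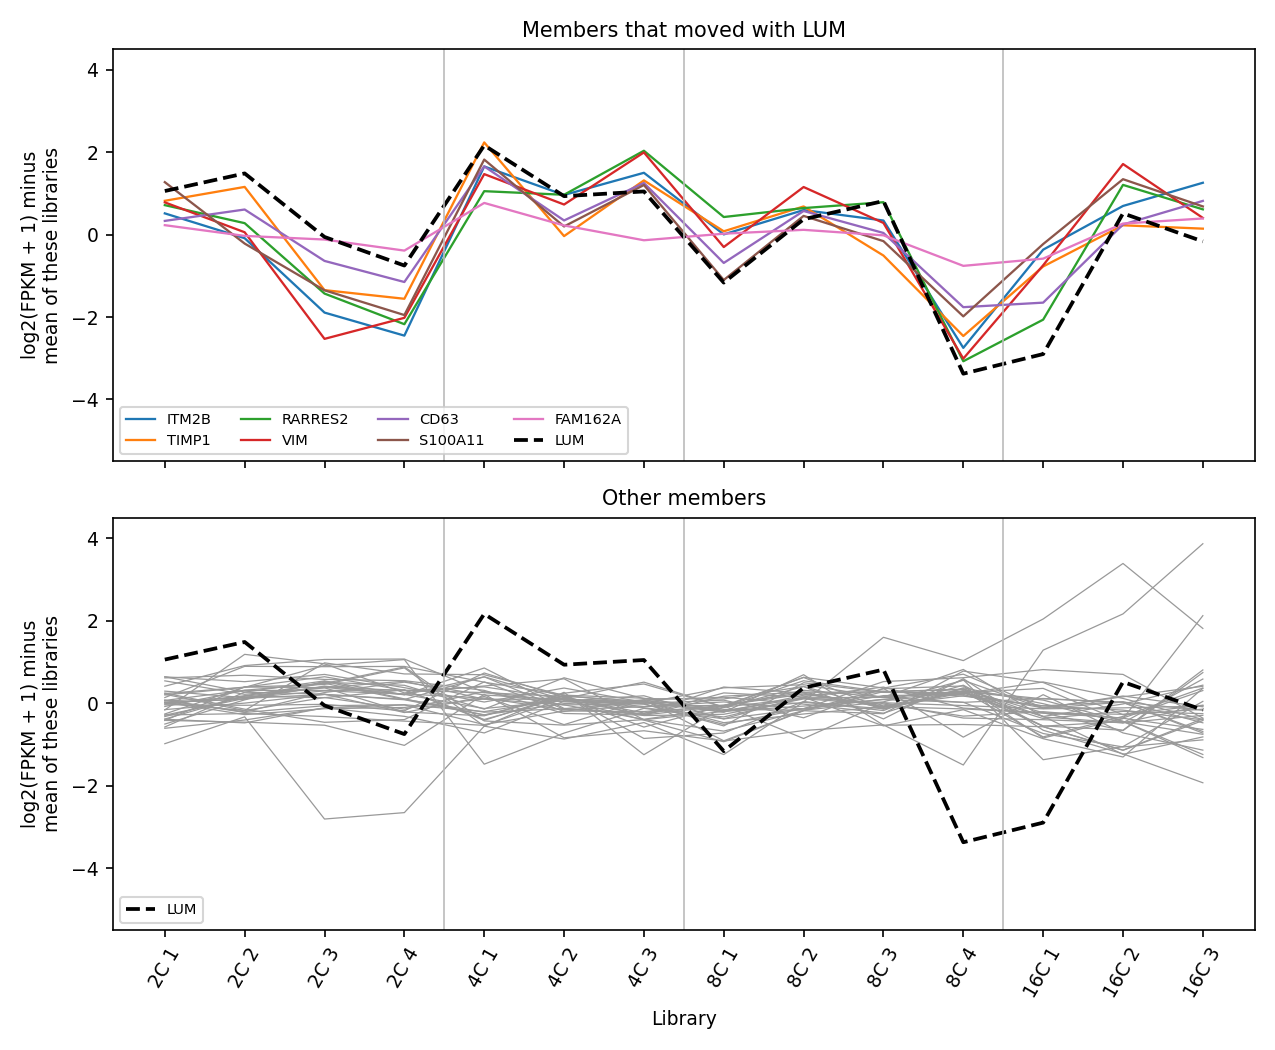
Lines show log2(FPKM + 1) minus its mean over the 14 libraries from 2C to 16C, one line per gene, with LUM dashed. The 7 genes in the upper panel are low with LUM in 8C 4, are lower in 2C 3 and 2C 4 than in 2C 1 and 2C 2, and reach their highest value from 2C to 16C at 4C, where VIM and RARRES2 peak in 4C 3 and the others in 4C 1, while most of the other 36 genes in the lower panel stay near 0 there; the lines that leave upward at 16C are NHP2, ID2 and MRPL48, and the line that is low in 2C 3 and 2C 4 is ID2.

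After 2C the median gene of the group stayed near its new level through cleavage, and most calls came from the morula on. As a description that still uses the 2C libraries, the median gene stood at 96.3% of its 2C mean at 4C, 94.7% at 8C, 83.2% at 16C, 76.9% at the morula, 40.1% for EarlyB and 46.9% for ExpB. The FPKM of all genes summed to between 419071 and 431265 per library at 2C, 586848 and 627084 in morulae, and 617281 and 682165 in ExpB. An FPKM is thus a smaller share of a library in those later stages, and these percentages are not rescaled for it. Single genes moved more: 6 of the 43 stood above 200% of their 2C mean at 4C, and at 16C 5 stood above 200% and 6 below 50%. At 4C the 7 genes that followed LUM had a median of 239% of 2C and the other 36 a median of 89.7%. The MII libraries also chose the genes, so counts of genes above them are partly built in and are given as a description. Of the 8622 genes, not chosen so, 30.2% had every 4C library above both MII libraries, a share computed at 4C only. In the group this held for 42 of 43 genes, the exception being LOC121816800. The same held for 40 genes at 8C, 41 at 16C, 29 at the morula, 26 at EarlyB and 24 at ExpB; among the 36 it held for 35 at 4C, 36 at 8C, 34 at 16C, 24 at the morula, 22 at EarlyB and 20 at ExpB. The stage of the highest mean was 2C for 14 genes, 4C for 4, 8C for 5, 16C for 1, Morula for 10, EarlyB for 1 and ExpB for 8. Of the 7 genes that followed LUM, 3 were highest at 4C and 4 at ExpB.

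**Figure D2:**
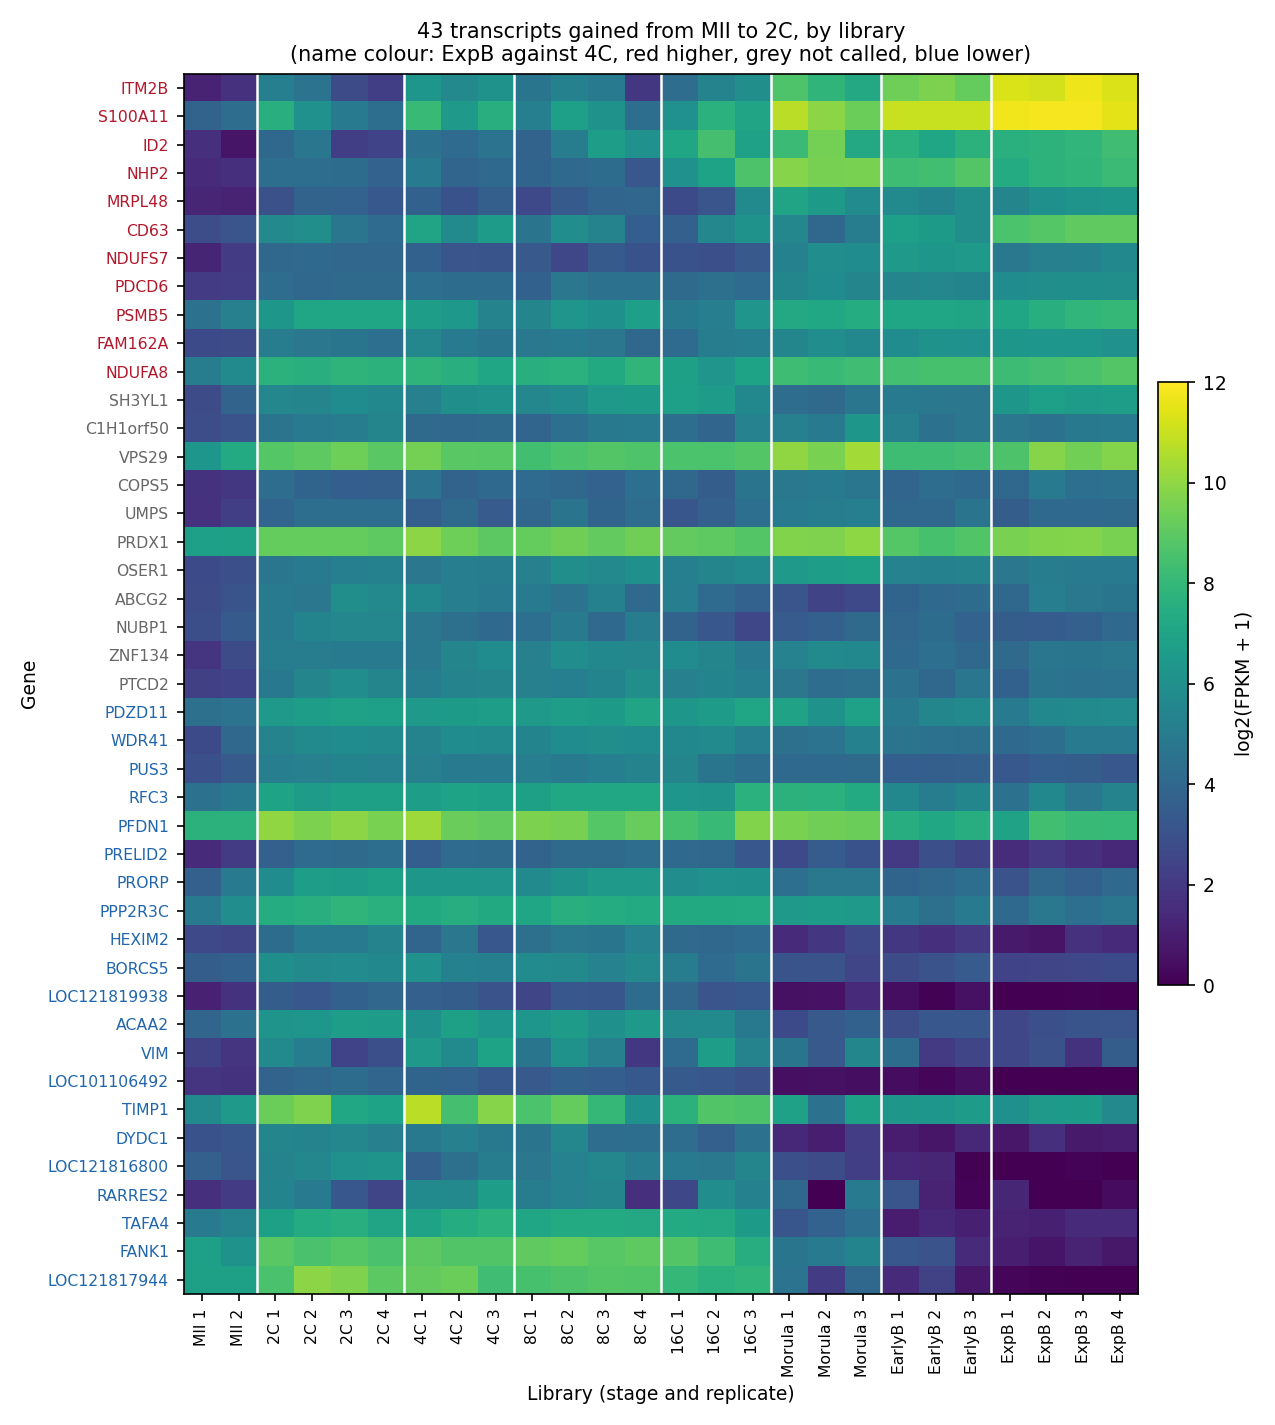
Each row is one of the 43 genes and each column one of the 26 libraries, in stage order, with colour giving log2(FPKM + 1). Rows are sorted by the difference of ExpB against 4C, so that genes such as ITM2B and S100A11 at the top brighten to the right and LOC121817944, FANK1 and TAFA4 at the bottom go dark from the morula on.

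In the tests, a gene was called when its Benjamini-Hochberg adjusted p in limma was under 0.05 and its difference at least 1 on the log2(FPKM + 1) scale, a scale that understates changes of genes near an FPKM of 1. All 43 passed the filter on low values, as the rule made sure through 2C. The other genes tested needed an FPKM of 1 in only 2 libraries, while the lowest 4C mean of the 43 was 9.21 FPKM. A gene near 0 at the earlier stage cannot be called lower. Shares and medians over all genes are therefore not matched to the group for level, and a comparison with genes of like level was not made. Differences below are later minus earlier stage with their standard error, and p is limma's adjusted p over 15766 genes.

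At 8C against 4C no gene of the group was called higher or lower; over all genes tested 0.577% were higher and 0.330% lower. An unadjusted p in limma under 0.05 was reached by 8 of 43, beside 2460 of 15766. The median difference was -0.02 in the group and 0.02 over all genes. None of the 36 was called. With only these 2 stages fitted no gene of all tested was called, so that fit says nothing of the group.

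At 16C against 8C, 2 of 43 were higher and 1 lower, where 5.54% of all genes were higher and 2.01% lower, so the share is near that of all genes. The 2 higher genes were NHP2 and ID2 and the lower gene was NUBP1. The same 3 were called among the 36 genes that did not follow LUM. With values rescaled to a common sum (TPM scale) and after quantile normalization the split was 2 higher and 4 lower, where 1003 of all genes were higher and 768 lower on the TPM scale and 836 higher and 343 lower after quantile normalization. It was also 2 and 4 without 8C 3, without 16C 1 or without 16C 3, and with only these 2 stages fitted none was called, where 251 of all genes were higher and 65 lower.

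At Morula against 16C, 11 of 43 were higher and 14 lower, where 28.1% of all genes were higher and 15.0% lower. The higher genes included S100A11, ITM2B, MRPL48, NDUFS7 and NHP2, and the lower ones LOC121817944, TAFA4, FANK1 and LOC101106492. The median difference was -0.25 in the group and 0.32 over all genes. Among the 36 genes, 9 were higher and 13 lower. On the TPM scale 7 of 43 were higher and 19 lower, where 4268 of all genes were higher and 3501 lower, against 4437 and 2364 without rescaling. The median of all genes was 0.18 there and -0.01 after quantile normalization.

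At EarlyB against Morula, 2 of 43 were higher and 13 lower, where 14.7% of all genes were higher and 12.4% lower. CD63 and ABCG2 were the higher pair, and TAFA4, FANK1 and RFC3 had the largest decreases. The median difference was -0.57 in the group and 0.03 over all genes, and 1 was higher and 13 lower among the 36. At ExpB against EarlyB, 4 of 43 were higher (CD63, ITM2B, SH3YL1 and VPS29) and 3 lower (FANK1, LOC121817944 and NDUFS7), where 4.65% of all genes were higher and 13.1% lower. Here the group's median difference was -0.06, beside -0.30 over all genes. Among the 36, 2 were higher and 3 lower. With median-ratio scaling 5 of 43 were higher and 2 lower, where 1225 of all genes were higher and 915 lower. At a pseudocount of 0.1 in place of 1 the split turned to 4 higher and 8 lower, where 863 of all genes were higher and 3347 lower.

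Over the whole span, Morula against 4C gave 11 higher and 16 lower of 43, where 31.4% of all genes were higher and 17.4% lower. ExpB against 4C gave 11 higher and 21 lower, where 29.9% of all genes were higher and 23.3% lower. The median differences were -0.81 and -0.93 in the group, beside 0.35 and 0.23 over all genes. Among the 36 genes, Morula against 4C gave 9 higher and 13 lower, and ExpB against 4C gave 7 higher and 18 lower. On the TPM scale morulae gave 6 higher and 23 lower, where 4732 of all genes were higher and 4092 lower, and ExpB gave 8 higher and 25 lower, where 4467 were higher and 5043 lower. Quantile normalization gave 9 higher and 22 lower in morulae, where 3498 of all genes were higher and 3884 lower.

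Both spans together sort the 43 genes. In morulae and again in ExpB, 8 were higher than at 4C (ID2, ITM2B, MRPL48, NDUFS7, NHP2, PDCD6, PSMB5 and S100A11) and 13 were lower (ACAA2, BORCS5, DYDC1, FANK1, HEXIM2, PRORP, RARRES2, TAFA4, TIMP1 and the 4 genes with LOC identifiers). A further 8 were called only in ExpB and lower (PDZD11, PFDN1, PPP2R3C, PRELID2, PUS3, RFC3, VIM and WDR41), and 2 only in ExpB and higher (FAM162A and NDUFA8). Called only in morulae were C1H1orf50, OSER1 and UMPS as higher and ABCG2 and SH3YL1 as lower, while CD63 was lower in morulae and higher in ExpB. No call was made in either span for COPS5, NUBP1, PRDX1, PTCD2, VPS29 and ZNF134, and COPS5 and PTCD2 were called in none of the 7 comparisons. Whether a call in one span and not in the other is a difference was not tested.

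**Figure D3:**
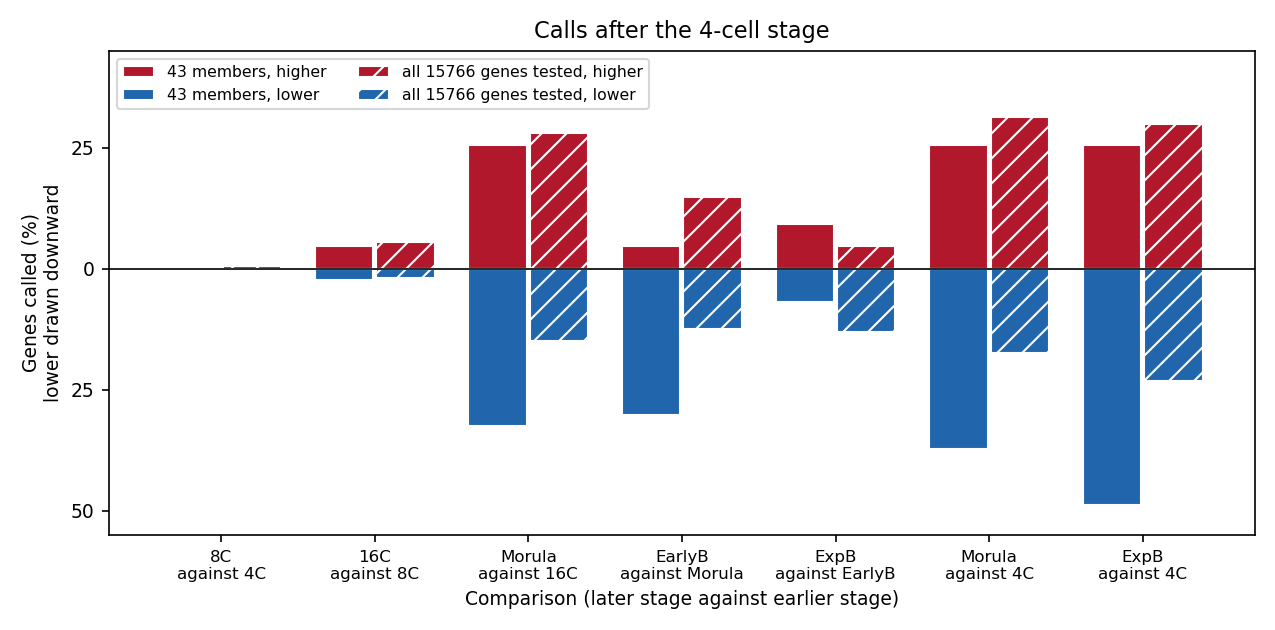
Bars give the percent of genes called higher (upward) and lower (downward) at each later stage against the earlier one, for the 43 genes (plain) beside all 15766 genes tested (hatched). No bar of the group is seen at 8C against 4C, and at ExpB against 4C 48.8% of the group is lower, beside 23.3% of all genes. All genes tested were not matched to the group for level at the earlier stage.

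The mitochondrial genes went different ways. NDUFS7, an iron-sulfur subunit of complex I, had 37.4, 57.5 and 56.4 FPKM in morulae, against 7.005, 6.60 and 9.17 FPKM at 16C, a difference of 2.57 ± 0.25 (adjusted p = 1.5e-08). It was highest in EarlyB, with 85.0, 81.2 and 85.4 FPKM, and lower in ExpB, with 27.2, 36.7, 38.0 and 47.1 FPKM (-1.17 ± 0.24, adjusted p = 0.00043; difference -0.80 with median-ratio scaling). NDUFA8, another subunit of complex I, had 312, 276 and 319 FPKM in morulae, against 113, 75.5 and 125 FPKM at 16C (1.55 ± 0.21, adjusted p = 1.2e-06). In both genes every morula library exceeded every 16C library. For ExpB against 4C NDUFA8 only just reached the limit, at 1.03 ± 0.20 (adjusted p = 5.8e-05), and stood at 0.85 without 4C 3, 0.93 without ExpB 4, 0.97 with replicate number as a block, 0.47 on the TPM scale and 0.67 after quantile normalization.

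MRPL48, a protein of the large mitochondrial ribosomal subunit, had 129, 93.5 and 53.5 FPKM in morulae, against 5.54, 8.05 and 50.2 FPKM at 16C (2.59 ± 0.51, adjusted p = 0.00014; adjusted p = 0.052 with only these 2 stages fitted). Library 16C 3 lay close to the lowest morula library and far from the other 16C libraries. FAM162A, a mitochondrial protein induced by hypoxia in human cells and one of the 7 that followed LUM, had 81.6, 77.0, 77.2 and 66.8 FPKM in ExpB, against 46.2, 31.3 and 24.2 FPKM at 4C (1.18 ± 0.24, adjusted p = 0.00014; difference 0.97 without 4C 3 and 0.63 on the TPM scale).

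ACAA2, the thiolase of mitochondrial fatty acid oxidation, fell to 5.51, 9.17 and 12.2 FPKM in morulae, against 48.4, 52.5 and 28.1 FPKM at 16C (-2.15 ± 0.28, adjusted p = 6.6e-07). PRORP, the nuclease of mitochondrial RNase P, which trims tRNA leaders, fell to 19.6, 26.5 and 26.8 FPKM, against 58.6, 66.2 and 63.7 FPKM at 16C (-1.35 ± 0.30, adjusted p = 0.00054). PRELID2, a protein with the PRELI domain, was lower in ExpB than at 4C by 2.33 ± 0.26 on the log2 scale (adjusted p = 3.6e-08), with means of 2.17 ± 0.62 FPKM in ExpB (SD, n = 4) and 15.0 ± 3.43 FPKM at 4C (SD, n = 3). PTCD2 had 26.1, 18.3 and 20.8 FPKM in morulae, against 36.8, 41.1 and 35.7 FPKM at 16C; the libraries did not overlap, and the difference of -0.79 ± 0.26 (adjusted p = 0.012) was under the size limit. Of the 8 mitochondrial genes 3 were higher and 2 lower at Morula against 16C, where 28.1% of all genes were higher and 15.0% lower. At ExpB against 4C, 4 were higher and 3 lower, where 29.9% of all genes were higher and 23.3% lower. Counts out of 8 genes are too small to be set apart from these shares.

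The lists around them moved as follows. Of all genes 28.1% were higher and 15.0% lower at Morula against 16C. At ExpB against 4C, 29.9% of all genes were higher and 23.3% lower. Of 52 complex I genes, 41 were higher and 1 lower at Morula against 16C, and 42 higher and 4 lower at ExpB against 4C. Their median differences were 2.52 and 2.12, beside 0.32 and 0.23 over all genes. Of 36 genes of mitochondrial RNA processing and expression, 17 were higher and 6 lower at the first comparison and 17 higher and 11 lower at the second; on the TPM scale the second gave 13 and 13. Of 193 numbered zinc finger genes tested, 45 were higher and 27 lower at the first and 34 higher and 46 lower at the second, and their median changed sign after quantile normalization in both and on the TPM scale in the second.

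Among genes of RNA and transcription, NHP2, a protein of H/ACA particles that guide pseudouridylation and of telomerase, had 13.5, 16.3, 18.0 and 8.69 FPKM at 8C, 65.9, 122 and 400 FPKM at 16C, and 904, 744 and 762 FPKM in morulae. It was higher at 16C than at 8C by 3.34 ± 0.39 (adjusted p = 1.3e-06; adjusted p = 0.053 with only these 2 stages fitted) and in morulae than at 16C by 2.43 ± 0.41 (adjusted p = 2.5e-05), and the libraries of successive stages did not overlap. It was lower in EarlyB, with 309, 329 and 435 FPKM, than in morulae (-1.18 ± 0.41, adjusted p = 0.023). That last call was lost without Morula 1 (adjusted p = 0.067), EarlyB 1 (adjusted p = 0.069) or EarlyB 2 (adjusted p = 0.062), and after quantile normalization (adjusted p = 0.083).

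ID2 had 136, 349 and 116 FPKM at 16C, against 13.1, 33.1, 100 and 67.2 FPKM at 8C (2.06 ± 0.62, adjusted p = 0.024). All 16C libraries lay above all 8C libraries, but the call was lost without 8C 1 (adjusted p = 0.093), 8C 2 (adjusted p = 0.059) or 16C 2 (adjusted p = 0.12), without the filter on low values (adjusted p = 0.053) and with only these 2 stages fitted (adjusted p = 0.21). In ExpB it had 196, 213, 240 and 318 FPKM, against 21.7, 17.2 and 23.1 FPKM at 4C (3.47 ± 0.62, adjusted p = 2.5e-05).

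HEXIM2, an inhibitor of the transcription elongation kinase P-TEFb, fell to 1.72, 2.76 and 5.17 FPKM in morulae, against 16.9, 15.2 and 17.4 FPKM at 16C (-2.13 ± 0.35, adjusted p = 1.8e-05). ZNF134 fell to 16.2, 19.9 and 15.5 FPKM in EarlyB, against 38.3, 50.03 and 47.4 FPKM in morulae (-1.34 ± 0.27, adjusted p = 0.00031). PUS3, a tRNA pseudouridine synthase, was lower in ExpB, at 9.73 ± 1.18 FPKM (SD, n = 4), than at 4C, at 32.5 ± 3.46 FPKM (SD, n = 3), by a difference of -1.64 ± 0.19 (adjusted p = 7.1e-08). These 3 genes ended below their 2C level, and NHP2 and ID2 above it.

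**Figure D4:**
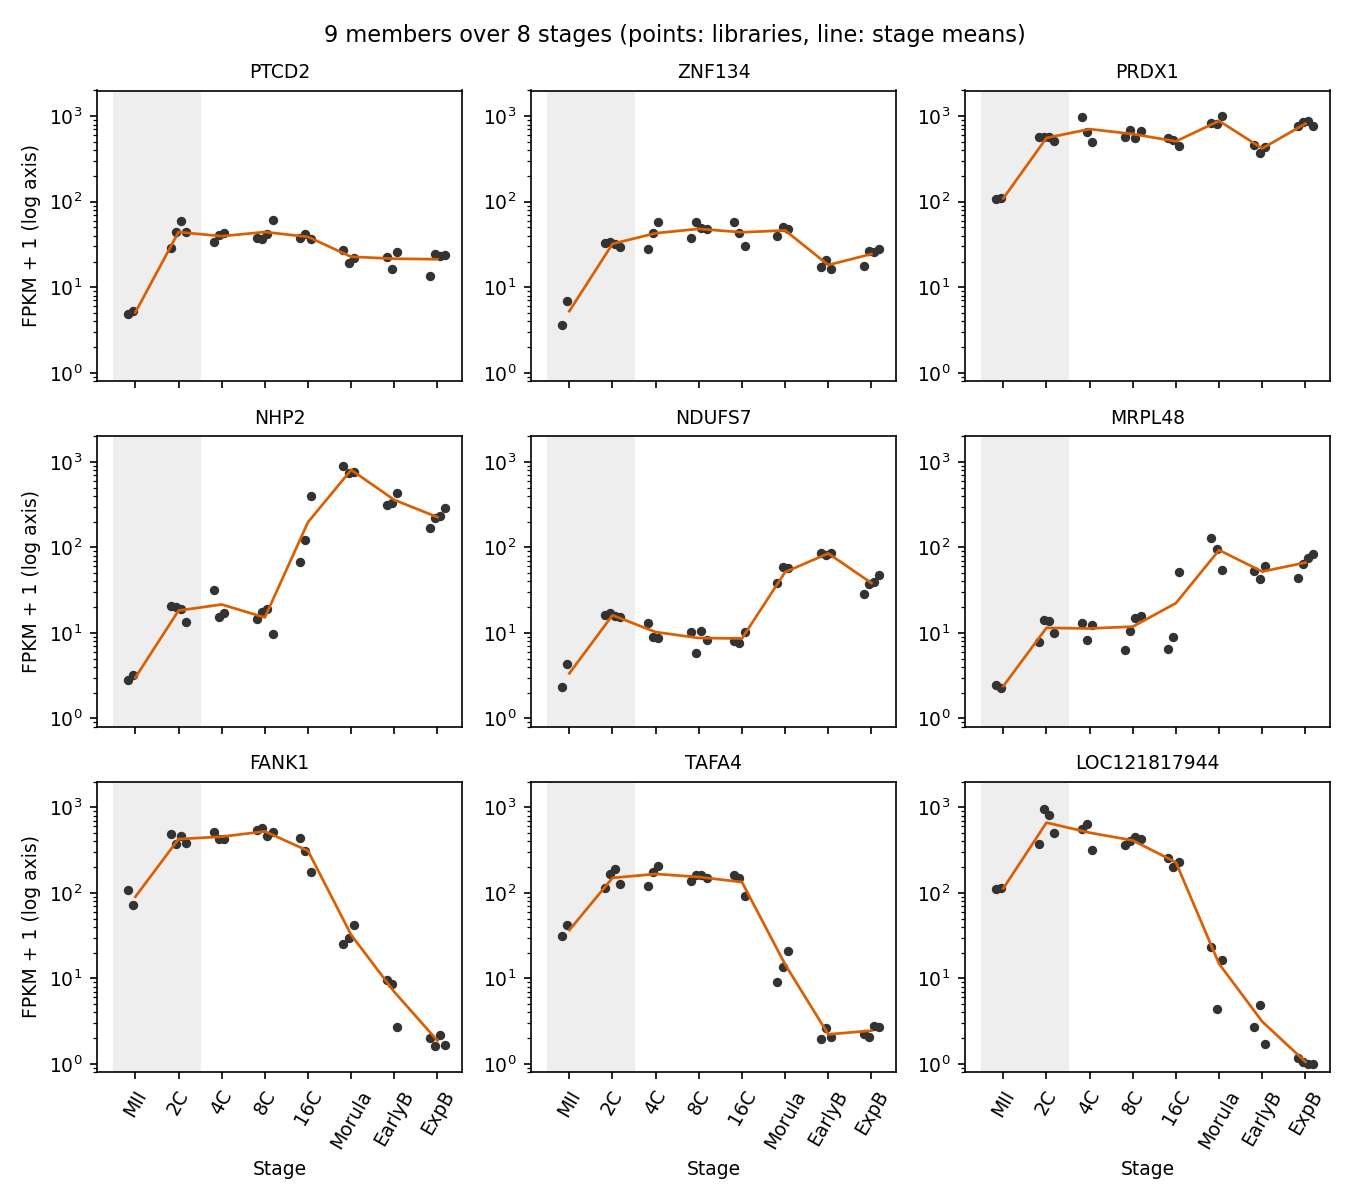
Points are the libraries and lines the stage means of 9 of the genes, as FPKM + 1 on a log axis, with the MII and 2C libraries that chose them shaded. The top row holds genes that stayed within a few-fold of 2C. The middle row holds genes that were higher from the morula on, with NHP2 already higher at 16C. The bottom row holds genes that fell to between 3.36 and 41.0 FPKM in morulae and further in blastocysts.

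Among 4 genes of protein folding, turnover and redox, 1 was higher and none lower at Morula against 16C. Of all genes 28.1% were higher and 15.0% lower there. At EarlyB against Morula none was higher and 2 were lower, where 14.7% of all genes were higher and 12.4% lower. PSMB5, the chymotrypsin-like catalytic subunit of the proteasome, had 149, 140 and 170 FPKM in morulae, against 27.5, 34.6 and 75.1 FPKM at 16C (1.85 ± 0.37, adjusted p = 0.00017). Against 4C, with 104, 83.7 and 39.8 FPKM, its increase in morulae was 1.11 ± 0.37 (adjusted p = 0.012), which was lost without 4C 3 (adjusted p = 0.11) and with each of the 3 other scalings (adjusted p = 0.06 to 0.14). PRDX1 fell to 456, 368 and 433 FPKM in EarlyB, against 836, 809 and 997 FPKM in morulae (-1.07 ± 0.18, adjusted p = 5.5e-05), a size that was -0.98 without Morula 3 or without EarlyB 2 and -0.77 after quantile normalization. In ExpB it had 769, 850, 883 and 774 FPKM, above every EarlyB library, at a difference of 0.97 ± 0.17 (adjusted p = 0.00012) that was just under the size limit.

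PFDN1, a subunit of the prefoldin chaperone that hands actin and tubulin to their folding machine, fell to 179, 146 and 179 FPKM in EarlyB, against 773, 664 and 633 FPKM in morulae (-2.03 ± 0.36, adjusted p = 8.4e-05). COPS5, the catalytic subunit of the signalosome that acts on cullin ligases, had 26.7, 30.8 and 25.1 FPKM in morulae, against 15.2, 10.8 and 23.5 FPKM at 16C, a difference of 0.77 ± 0.26 (adjusted p = 0.014) under the size limit.

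Of 9 genes of membranes and trafficking, 3 were higher and 3 lower at Morula against 16C (28.1% and 15.0% of all genes). At EarlyB against Morula 2 were higher and 2 lower (14.7% and 12.4% of all genes). Morula against 4C gave 2 higher and 4 lower (31.4% and 17.4% of all genes). ExpB against 4C gave 3 higher and 3 lower (29.9% and 23.3% of all genes). At ExpB against EarlyB 4 were higher and none lower, where 4.65% of all genes were higher and 13.1% lower; of these 4, CD63 and ITM2B followed LUM. ITM2B, a membrane protein known to bind the amyloid precursor protein, had 2561, 2289, 3275 and 2621 FPKM in ExpB, against 646, 785 and 574 FPKM in EarlyB (2.01 ± 0.66, adjusted p = 0.018; adjusted p = 0.059 without EarlyB 3). Its morula libraries had 415, 231 and 152 FPKM, against 18.8, 40.3 and 60.1 FPKM at 16C (2.74 ± 0.70, adjusted p = 0.0017). Against 4C, at 79.3, 48.7 and 71.2 FPKM, ExpB was higher by 5.33 ± 0.66 (adjusted p = 1.4e-07), the largest increase of the group over that span on this scale. For Morula against 4C the increase of 1.89 ± 0.70 (adjusted p = 0.021) was lost without 4C 2 (adjusted p = 0.069), without Morula 1 (adjusted p = 0.095), on the TPM scale (adjusted p = 0.089) and after quantile normalization (adjusted p = 0.053).

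CD63, a tetraspanin of late endosomes and exosomes, had 386, 462, 542 and 532 FPKM in ExpB, against 110, 91.3 and 60.8 FPKM in EarlyB (2.47 ± 0.54, adjusted p = 0.00098). In EarlyB it was above morulae, with 45.8, 15.8 and 31.4 FPKM, by 1.55 ± 0.58 (adjusted p = 0.032), a call lost without Morula 2 (adjusted p = 0.15), Morula 3 (adjusted p = 0.055), EarlyB 1 (adjusted p = 0.1) or EarlyB 2 (adjusted p = 0.078) and without the filter on low values (adjusted p = 0.058). Its decrease in morulae against 4C, -1.53 ± 0.58 (adjusted p = 0.023), was lost without 4C 1 (adjusted p = 0.098), 4C 3 (adjusted p = 0.062) or Morula 2 (adjusted p = 0.13). CD63 and ITM2B both followed LUM up to 16C and were highest in ExpB, where LUM had 1.71, 3.76, 0.904 and 0.434 FPKM.

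SH3YL1, a phosphoinositide-binding protein of membrane ruffles, fell to 18.4, 16.5 and 25.6 FPKM in morulae, against 107, 98.8 and 46.9 FPKM at 16C (-1.95 ± 0.32, adjusted p = 1.5e-05). It was back at 79.4, 110, 94.7 and 101 FPKM in ExpB, against 30.3, 26.6 and 26.02 FPKM in EarlyB (1.76 ± 0.30, adjusted p = 7.2e-05). ABCG2, an efflux pump of the plasma membrane, followed a similar dip, with 8.10, 4.502 and 5.30 FPKM in morulae, against 34.3, 17.5 and 12.9 FPKM at 16C (-1.62 ± 0.36, adjusted p = 0.00054), and 13.4, 16.4 and 17.9 FPKM in EarlyB (1.3 ± 0.36, adjusted p = 0.0052). Both genes had their lowest mean after MII in morulae.

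VPS29, a subunit of the retromer that returns receptors from endosomes, had 1045, 762 and 1296 FPKM in morulae, against 390, 382 and 445 FPKM at 16C (1.32 ± 0.28, adjusted p = 0.00028). It fell in EarlyB, to 313, 311 and 335 FPKM (-1.66 ± 0.28, adjusted p = 4.2e-05), and was higher in ExpB, with 397, 901, 698 and 862 FPKM (1.09 ± 0.26, adjusted p = 0.002). The morula increase was 0.94 on the TPM scale and 0.83 after quantile normalization, and the ExpB increase was 0.96 without ExpB 2, 0.98 without ExpB 4 and 0.73 after quantile normalization. PDCD6, a calcium-binding protein of vesicle transport, rose in morulae to 44.8, 56.0 and 43.04 FPKM, against 16.8, 20.7 and 17.1 FPKM at 16C (1.35 ± 0.19, adjusted p = 2.9e-06; difference 0.99 on the TPM scale). BORCS5, of the complex that places lysosomes, fell there to 7.76, 7.30 and 4.62 FPKM, against 33.2, 17.0 and 23.2 FPKM (-1.73 ± 0.25, adjusted p = 3e-06).

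PDZD11, a PDZ protein that binds membrane transporters, and WDR41, part of a complex recruited to lysosomes, were lower in ExpB than at 4C by 1.04 on the log2 scale each (-1.04 ± 0.24 with adjusted p = 0.00052, and -1.04 ± 0.28 with adjusted p = 0.0018). Both lay at the size limit. PDZD11 was at -0.97 without 4C 3 and -0.84 without ExpB 1, WDR41 was at -0.94 without 4C 2, -0.88 without ExpB 1 and -0.96 without ExpB 2, and after quantile normalization they were at -0.95 and -0.89.

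Of 4 genes of nucleotides, iron-sulfur clusters, replication and phosphatases, NUBP1 fell first. NUBP1, a scaffold for cytosolic iron-sulfur clusters, had 13.2, 8.54 and 4.86 FPKM at 16C, against 19.8, 28.6, 16.2 and 32.8 FPKM at 8C (-1.40 ± 0.28, adjusted p = 0.0014; adjusted p = 0.12 with only these 2 stages fitted), and no 16C library reached an 8C library. RFC3, of the clamp loader of DNA replication, fell to 48.2, 32.6 and 44.1 FPKM in EarlyB, against 208, 203 and 158 FPKM in morulae (-2.17 ± 0.30, adjusted p = 3.7e-06). PPP2R3C, a regulatory subunit of protein phosphatase, fell to 29.8, 20.6 and 29.5 FPKM in EarlyB, against 89.6, 93.6 and 88.9 FPKM in morulae (-1.75 ± 0.22, adjusted p = 1e-06). UMPS, which completes the synthesis of uridine monophosphate, had 30.4, 33.1 and 34.7 FPKM in morulae, against 8.17, 11.9 and 19.9 FPKM at 16C (1.32 ± 0.28, adjusted p = 0.00026; difference 0.98 on the TPM scale).

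Among secreted and cytoskeletal genes, 4 of the 5 followed LUM, and the fifth, TAFA4, did not. S100A11, a calcium-binding protein of membranes and the cytoskeleton, had 1731, 962 and 635 FPKM in morulae, against 66.4, 200 and 126 FPKM at 16C (3.09 ± 0.64, adjusted p = 0.00022). It reached 3398, 3704, 3623 and 2884 FPKM in ExpB, against 278, 89.6 and 181 FPKM at 4C (4.35 ± 0.60, adjusted p = 7.2e-07). TIMP1, an inhibitor of matrix metalloproteinases, had 114, 21.9 and 112 FPKM in morulae, against 1711, 353 and 902 FPKM at 4C (-3.61 ± 0.76, adjusted p = 0.00024). Against 16C, at 211, 424 and 400 FPKM, its decrease in morulae of -2.30 ± 0.76 (adjusted p = 0.012) was lost without Morula 2 (adjusted p = 0.1).

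RARRES2, the secreted adipokine chemerin, had 1.44, 0, 0 and 0.272 FPKM in ExpB, against 52.2, 49.1 and 104 FPKM at 4C (-5.62 ± 1.06, adjusted p = 5.1e-05). In morulae, with 15.2, 0 and 31.0 FPKM, the difference from 4C of -3.02 ± 1.13 (adjusted p = 0.022) was lost without 4C 3 (adjusted p = 0.072), without Morula 2 (adjusted p = 0.22) and with only these 2 stages fitted (adjusted p = 0.094). VIM, the intermediate filament vimentin, had 4.96, 6.90, 2.34 and 10.8 FPKM in ExpB, against 85.3, 50.7 and 123 FPKM at 4C (-3.65 ± 0.86, adjusted p = 0.00059). LUM moved in the same direction over that span, and the part of cumulus RNA was not tested.

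TAFA4, a secreted chemokine-like protein, was steady through cleavage, with 119, 174 and 204 FPKM at 4C, 137, 161, 163 and 149 FPKM at 8C, and 159, 149 and 90.9 FPKM at 16C. It fell to 8.17, 12.6 and 20.0 FPKM in morulae (-3.24 ± 0.27, adjusted p = 1.7e-09) and to 0.963, 1.62 and 1.07 FPKM in EarlyB (-2.65 ± 0.27, adjusted p = 8.6e-08). Each step down was larger than the spread of either stage.

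FANK1 and DYDC1, both known from testis in mouse, fell in the same window. FANK1 had 443, 309 and 177 FPKM at 16C, 24.2, 28.7 and 41.0 FPKM in morulae, 8.65, 7.53 and 1.68 FPKM in EarlyB, and 0.984, 0.627, 1.18 and 0.687 FPKM in ExpB. The steps were -3.20 ± 0.35 (adjusted p = 6.9e-08), -2.39 ± 0.35 (adjusted p = 8.2e-06) and -1.70 ± 0.33 (adjusted p = 0.00028), so FANK1 was called lower at each of them. DYDC1 had 1.57, 1.01 and 3.47 FPKM in morulae, against 18.3, 12.01 and 21.1 FPKM at 16C (-2.64 ± 0.31, adjusted p = 2.2e-07). Sperm markers, 11 in the table, summed to between 3.97 and 6.97 FPKM at 2C, against 2.56 and 3.01 FPKM at MII. Most of each sum was ODF2, with 5.998, 3.86, 5.29 and 3.99 FPKM at 2C, against 2.48 and 2.89 FPKM at MII. ODF2 was also present in every later library, at 4.40 to 8.92 FPKM. Every other sperm marker was at 0.5635 FPKM or below in each MII and 2C library. The part of sperm RNA in FANK1 and DYDC1 was not tested.

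All 4 genes with LOC identifiers were lower in morulae than at 16C, where 15.0% of all genes were lower. LOC121817944 had 375, 958, 817 and 501 FPKM at 2C, against 111 and 113 FPKM at MII. It had 22.5, 3.36 and 15.6 FPKM in morulae, against 252, 201 and 227 FPKM at 16C, a difference of -4.25 ± 0.45 (adjusted p = 3.9e-08). In EarlyB it had 1.73, 3.94 and 0.710 FPKM (-2.07 ± 0.45, adjusted p = 0.0006; adjusted p = 0.065 with only these 2 stages fitted), and in ExpB 0.172, 0.0654, 0 and 0 FPKM (-1.43 ± 0.42, adjusted p = 0.0088), a last call lost without EarlyB 2 (adjusted p = 0.079) and after quantile normalization (adjusted p = 0.12).

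LOC101106492 had 0.392, 0.452 and 0.344 FPKM in morulae, against 9.53, 8.42 and 6.81 FPKM at 16C (-2.72 ± 0.17, adjusted p = 2.9e-11), and is listed at 0 in all 4 ExpB libraries. LOC121819938 had 0.452, 0.478 and 1.66 FPKM in morulae, against 14.6, 8.07 and 8.96 FPKM at 16C (-2.65 ± 0.33, adjusted p = 3.8e-07). LOC121816800 fell to 6.53, 5.68 and 3.66 FPKM, against 29.2, 26.7 and 43.01 FPKM at 16C (-2.43 ± 0.34, adjusted p = 2e-06). In ExpB all 4 had means under 1 FPKM, as did FANK1 and RARRES2, and 14 of the 43 genes had an ExpB mean below their MII mean.

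The remaining pair are little characterized. OSER1, a serine-rich protein that responds to oxidative stress, had 90.2, 104 and 111 FPKM in morulae, against 35.4, 42.9 and 51.4 FPKM at 16C (1.22 ± 0.20, adjusted p = 1.4e-05). Its increase was 0.86 on the TPM scale and 0.99 with median-ratio scaling, and in EarlyB it fell to 39.3, 37.6 and 39.7 FPKM (-1.36 ± 0.20, adjusted p = 7.8e-06). C1H1orf50 had 35.995, 30.4 and 81.0 FPKM in morulae, against 16.6, 15.4 and 17.0 FPKM at 4C (1.40 ± 0.34, adjusted p = 0.0011; difference 0.97 without Morula 3 and 0.95 on the TPM scale). Both were highest in morulae, C1H1orf50 with 1 library well above the other 2.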

How the data were processed

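The authors deposited FPKM per gene, 1 column per library, for 26 libraries of 8 stages. These tools stand in the submitters' processing notes, without role or order: featureCounts 2.0.1, SAMtools 1.9, HISAT2 2.1.0 and fastp 0.23.4. No source used here names the genome build or annotation. Since the deposited values are FPKM and not counts, no count model was used. Depth was recovered from low values of small RNA genes, 99.7% to 100% of which were whole reads within 0.05 reads.

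Stage differences were fitted across genes on the log2(FPKM + 1) scale, using R 4.3.3 and limma 3.58.1, with 8 stage means over all 26 libraries and an intensity trend. The test is two-sided with Benjamini-Hochberg adjustment over the 15766 genes that reached an FPKM of 1 in 2 or more libraries. The fit had 18 residual and 4.6 prior degrees of freedom and was tested on simulated data. None of the 7 comparisons sets MII or 2C libraries, which chose the genes, against another stage. These libraries do enter the estimate of the spread behind every standard error and p.

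The 43 genes, the lists and the comparisons were chosen with earlier results of these data known. Role groups and the split by LUM were made after values were seen. Genes named were the 10 with the highest ratio, the 3 largest increases and decreases called per comparison, those beside the threshold and those in a list; the others were added so that every gene is described. Alternatives were other scalings, pseudocounts and filters, fewer stages, a replicate block and leaving out each library. No sequence table was at hand, and none is shown.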

Additional observations from a re-analysis of the deposited data

Results flagged for a closer look

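In 128 groups of 4 libraries (each gene at 2C, 8C and ExpB, where not all values were 0), the library farthest from the others was set against the range of its group, and 6 lay beyond Dixon's critical value. Chance flags about 1 in 20 groups. At 2C, in libraries that chose the genes, PSMB5 had 80.2 FPKM in 2C 1 and 136 FPKM in each of the others, UMPS had 14.3 FPKM in 2C 1 and 19.0 to 19.2 FPKM in the others, and PRDX1 had 515 FPKM in 2C 4 and 566 to 575 FPKM in the others. In blastocysts, ExpB 1 was low for PTCD2, with 12.4 FPKM beside 22.1 to 23.7 FPKM, and for UMPS, with 10.7 FPKM beside 16.2 to 16.8 FPKM. LOC121816800 had 0.0857 FPKM in ExpB 3 and was listed at 0 in the other ExpB libraries.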

How the results depend on the processing

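Of 109 calls over the 7 comparisons, none changed direction under an alternative, 17 were lost without a single library and 30 under any alternative (12 on the TPM scale, 11 after quantile normalization, 6 with only the 2 stages fitted, 3 with median-ratio scaling, 2 without the filter). Counts of called genes stayed within 1.5 times the reported ones except at 16C against 8C, with 6 on the TPM scale, 6 after quantile normalization and 0 with only the 2 stages fitted, and at ExpB against EarlyB, with 12 at a pseudocount of 0.1; the causes were not tested. Leaving out each library in turn gave 0 calls at 8C against 4C, 2 to 6 at 16C against 8C (6 without 8C 3, 16C 1 or 16C 3), 25 to 31 at Morula against 16C, 12 to 16 at EarlyB against Morula, 6 to 9 at ExpB against EarlyB, 24 to 28 at Morula against 4C and 29 to 34 at ExpB against 4C. The number of genes meeting the rule, 43, became 83 at a pseudocount of 0.1, 97 at 0, 112 on the TPM scale, 25 with median-ratio scaling, 136 at a ratio of 3, 4 at a ratio of 6, and 27 to 112 without a single MII or 2C library (27 without MII 1, 112 without MII 2). In libraries with the same replicate number, deviations from stage means correlated at -0.09 to 0.19, 2 of 21 pairs over 0.1. These pairs hold no MII or 2C library. The labels do not say whether a number stands for a shared culture or batch, and these correlations cannot settle it. With replicate number as a block 1 call was lost, NDUFA8 at ExpB against 4C (0.97), and the counts of calls did not move by over 1.5 times. As a matter of counting reads, depth limits only levels near 0. It does not bound the error from amplifying very little RNA.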
